A study of Homo sapiens with 12 samples.

Results

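Cancer-testis antigens of the GAGE, MAGE and PRAME families were followed in 624Mel cells, a human melanoma cell line that expresses melanocytic pigment genes. The 10 genes described here, GAGE12G, GAGE13, MAGEA1, MAGEA3, MAGEA4, MAGEA6, MAGEA12, MAGEC1, MAGEC2 and PRAME, were chosen by name with their expression values and differences between the 4 conditions of these libraries known, and each had 1 row among the 40173 gene IDs of the expression table. Their values are therefore given as a description without p-values. RNA was sequenced from 4 conditions with 3 libraries each. In the siCTRL condition cells received control siRNA, and in the siMITF condition they received siRNA against MITF, the transcription factor that drives the melanocyte programme. The siCTRL + IFNγ and siMITF + IFNγ cells carried the same siRNAs and were given 5 ng/mL interferon gamma for the last 24 h before harvest, 48 h after transfection. All 12 libraries thus came from transfected cells of 1 line, and no untransfected cells were included. Replicates were numbered 1 to 3 in each condition, and p-values for other genes measure the spread between these libraries.

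Cancer-testis antigens are proteins whose genes are active in germ cells of the testis, are silent in most other adult tissues through promoter DNA methylation, and are switched on again in many tumours, where peptides from them can be recognised by T cells. GAGE genes lie as a tandem array of near-identical copies on the X chromosome. MAGE proteins share a homology domain that binds RING-type ubiquitin ligases, and the MAGEA and MAGEC subfamilies are among the germline-restricted ones. PRAME, encoded on an autosome, is a leucine-rich repeat protein that serves as a substrate receptor of CUL2 ubiquitin ligases and is known as a repressor of retinoic acid receptor signalling.

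The promoters of 5 of these genes are shown because they represent the families whose RNA is compared here, and because CpG methylation at such promoters is the known switch of the class. The sequences are RefSeq promoters on build GRCh38.p14. They hold the 250 bases before the start annotated in RefSeq, written 5′ to 3′ on the strand of the gene, with CG dinucleotides in capitals. Gene coordinates given further on are those of GENCODE v44, whose starts can differ. The windows of MAGEA3, MAGEA6 and PRAME therefore reach into the gene as GENCODE draws it. GAGE12G lies at chrX:49570147-49570396 on the plus strand, MAGEC1 at chrX:141903644-141903893 on the plus strand, MAGEA3 at chrX:152698544-152698793 on the plus strand, MAGEA6 at chrX:152769690-152769939 on the minus strand, and PRAME at chr22:22559266-22559515 on the minus strand.
GAGE12G: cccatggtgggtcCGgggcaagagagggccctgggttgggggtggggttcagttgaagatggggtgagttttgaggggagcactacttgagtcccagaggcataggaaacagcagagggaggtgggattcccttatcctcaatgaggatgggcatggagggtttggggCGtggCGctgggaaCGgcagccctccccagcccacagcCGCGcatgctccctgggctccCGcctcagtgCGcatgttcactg
MAGEC1: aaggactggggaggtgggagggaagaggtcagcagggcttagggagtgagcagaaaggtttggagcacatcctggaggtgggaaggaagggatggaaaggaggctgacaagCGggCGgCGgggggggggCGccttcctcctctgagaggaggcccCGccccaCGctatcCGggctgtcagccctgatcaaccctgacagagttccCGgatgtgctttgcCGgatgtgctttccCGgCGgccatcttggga
MAGEA3 and MAGEA6: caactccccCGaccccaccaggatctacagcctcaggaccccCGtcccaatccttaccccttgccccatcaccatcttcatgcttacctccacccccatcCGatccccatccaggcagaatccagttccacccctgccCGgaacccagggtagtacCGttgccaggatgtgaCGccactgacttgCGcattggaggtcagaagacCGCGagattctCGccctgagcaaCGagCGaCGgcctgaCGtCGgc
PRAME: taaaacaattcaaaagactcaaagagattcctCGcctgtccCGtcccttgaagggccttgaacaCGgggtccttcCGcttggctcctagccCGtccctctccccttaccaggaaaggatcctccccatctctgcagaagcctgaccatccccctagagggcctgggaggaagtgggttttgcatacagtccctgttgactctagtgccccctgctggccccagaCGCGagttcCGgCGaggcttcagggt
MAGEA3 and MAGEA6 are printed once because all 250 bases were identical. GAGE12G and GAGE13, whose interval was chrX:49331332-49331581 on the plus strand, were identical over all 247 bases compared at an offset of 3. The promoters of GAGE12G and GAGE13 held 8 CG dinucleotides, MAGEC1 held 11, MAGEA3 and MAGEA6 held 15 and this PRAME promoter held 9, against a median of 11 with quartiles of 3 and 23 over all 35116 RefSeq promoters. MAGEA1 had no entry, so promoters of 9 of the 10 genes were read.

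In the 50 bases after the start, each GAGE promoter carried the E-box CACGTG, the core to which MITF and related basic helix-loop-helix factors are known to bind. The 30 bases around it, with the E-box in capitals, were the same in GAGE12G at chrX:49570411-49570440, GAGE13 at chrX:49331593-49331622, GAGE12F at chrX:49560853-49560882 and GAGE2A at chrX:49589507-49589536, all on the plus strand.
GAGE E-box: ggccccttcgccCACGTGaagaacgccagg
CACGTG, which reads the same on both strands, was found after the start in all 13 entries of 12 GAGE genes. The GAGE entries belong to near-identical copies, so they do not count as separate matches. None of the 45 entries of MAGE genes and PRAME held CACGTG anywhere in their 300 bases. Over all promoters, 7.26% held CACGTG and 0.883% held it after the start. The related CATGTG, searched on both strands, was in none of the entries of the 10 genes and in 11.1% of all promoters. CCGGAA, the core of ETS factor sites, was 113 bases before the start of MAGEA3 and MAGEA6 and 20 bases before that of PRAME, and was found in 17.2% of all promoters. TTCNNNGAA, the core of sites of interferon-activated STAT factors, was found in 7.66% of all promoters and, among the entries of the 10 genes, in 1 of the 3 for PRAME. A pair of GAAA blocks separated by NN, the repeat of interferon response elements, was in none of them and in 3.57% of all promoters. These matches describe letters in a window and were not tested as binding sites.

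The labelled line was checked first. MITF fell with siMITF by 2.29 on the log2 scale (SE 0.19, limma adjusted p = 1.16e-06), from 187, 229 and 217 TPM (a share of all transcripts in a library, adjusted for their length) in siCTRL replicates 1 to 3 to 36.0, 49.7 and 41.7 TPM. MLANA, a melanocytic antigen, fell by 4.71 (adjusted p = 1.17e-11), and PMEL, a melanosome protein, by 2.16 (adjusted p = 2.26e-07). IFNγ raised IRF1, an interferon-induced transcription factor, by 4.66 (adjusted p = 2.19e-11) and HLA-B, an MHC class I gene, by 4.47 (adjusted p = 4.95e-11) in siCTRL cells. All 7 melanocytic markers reached a mean of 2 TPM in a condition, as did 1 of 5 fibroblast markers, LUM, and 1 of 5 leukocyte markers, LYZ. None of 4 keratinocyte, 4 endothelial or 4 germ cell markers did, and the germ cell list summed to 0.192 to 1.23 TPM in a library. Mitochondrial genes took 7.42% to 16.9% of the listed TPM, with replicate 2 lowest in every condition. In bulk RNA, fewer cells carrying a transcript and less of it per cell cannot be told apart.

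In siCTRL cells the order of levels was MAGEA4, PRAME, MAGEA3, MAGEA12, MAGEA6, GAGE12G, GAGE13, MAGEA1, MAGEC1 and MAGEC2, from a mean of 465 down to 0.230 TPM. TPM are scaled by transcript length, so levels of different genes can be set side by side. The places of GAGE12G, GAGE13, MAGEA3 and MAGEA6 also depend on how reads shared with near-identical copies were divided. All GAGE genes summed to a mean of 592 TPM in siCTRL cells. The ranges of PRAME and MAGEA3, of MAGEA12 and MAGEA6, and of GAGE12G and GAGE13 overlapped, and the other neighbours in the order were separate. In siMITF cells GAGE12G, GAGE13, MAGEC1 and MAGEC2 took the last places, below MAGEA1. Together the 10 genes summed to a mean of 1534 TPM in siCTRL cells and 1235 TPM in siMITF cells, and with IFNγ to 1531 and 1160 TPM.

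**Figure D1:**
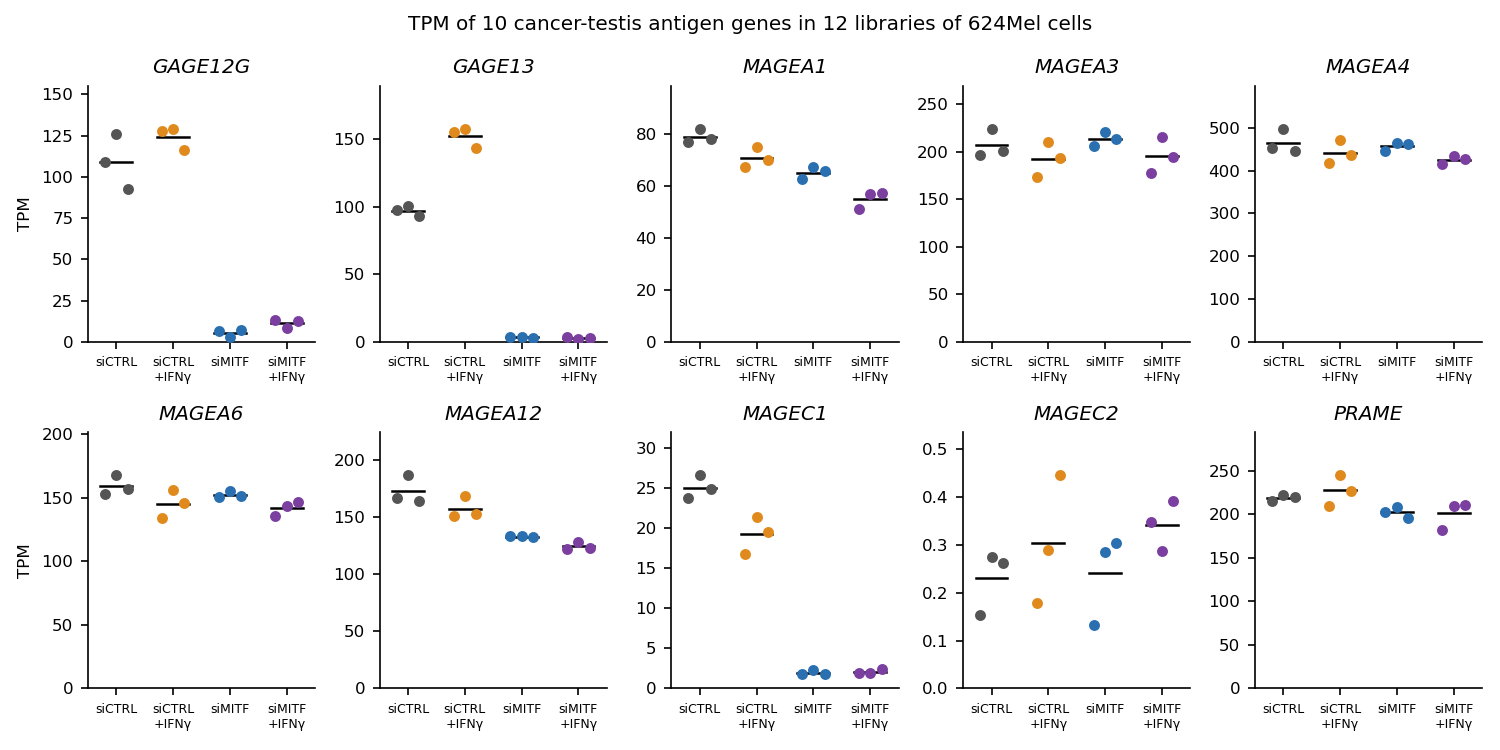
TPM of the 10 genes (vertical axes, each from 0 and scaled to the gene) in the 4 conditions (horizontal axes), with 1 point per library and a line at the mean of 3. GAGE12G, GAGE13 and MAGEC1 sit near 0 in both siMITF conditions, MAGEA1 and MAGEA12 are lower there, and MAGEC2 stays below 0.45 TPM in every library.

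How far RNA can be assigned to a single copy differs between these genes. The measure used is the share of all 31-base words in the GENCODE v44 transcripts of a gene that occur in no other gene, since the authors' quantifier, kallisto, assigns reads by such words and its default length is 31. The share was 99.5% for PRAME, 97.2% for both MAGEC1 and MAGEC2, 93.0% for MAGEA1, 88.1% for MAGEA4 and 68.3% for MAGEA12. It was 28.6% for MAGEA3, with 67.6% of its words shared with MAGEA6, and 29.9% for MAGEA6. GAGE13 had 3.20% of words of its own, and GAGE12G had 0 of 531, all of them being found in GAGE12F too. The levels of single GAGE genes therefore rest on how shared reads were divided among copies, and the summed GAGE level is given beside them. No ID of the 10 genes had values identical to another ID in all libraries.

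**Figure D2:**
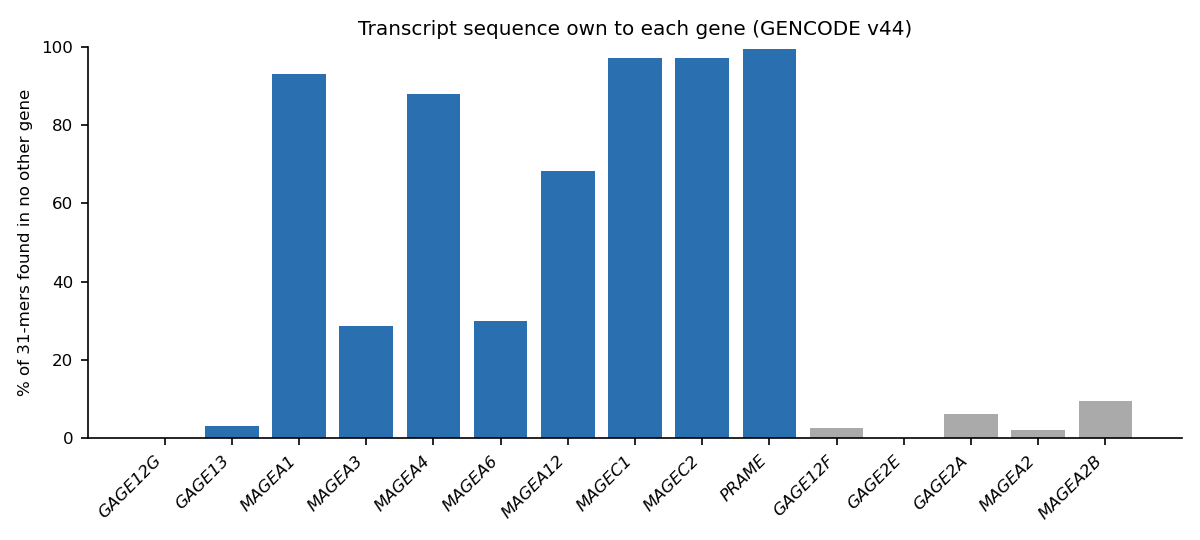
Percent of 31-base words in the transcripts of a gene that are found in no other gene (vertical axis), for the 10 genes in blue and for 5 further copies in grey. The 5 GAGE genes lie between 0% and 6.25%, MAGEA3 and MAGEA6 near 29%, and PRAME, MAGEC1 and MAGEC2 above 97%.

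The comparison of siMITF with siCTRL libraries asks how these antigens differ when MITF is depleted. Mean TPM in siMITF cells was 5.09% of the siCTRL mean for GAGE12G, 3.56% for GAGE13 and 7.76% for MAGEC1. It was 82.4% for MAGEA1 and 77.1% for MAGEA12, and between 92.5% and 103% for MAGEA3, MAGEA4, MAGEA6 and PRAME. A gene counted as called with a limma adjusted p under 0.05, an absolute log2 difference of at least 1 on TPM + 1, and an average of 2 TPM or more in 1 of the compared conditions. Of the 10 genes 9 passed the minimum of 2 TPM and were tested, and 3 of the 9 were called lower, against 2.88% of all 12773 tested genes. The 10 genes were listed with this contrast known, so nothing is read from that count.

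GAGE12G (ENSG00000215269, a protein-coding gene at chrX:49570400-49577754 on the plus strand) had 109, 126 and 92.6 TPM in siCTRL replicates 1 to 3 and 6.78, 2.95 and 6.95 TPM in siMITF replicates. The log2 difference of TPM + 1 was -4.13 (SE 0.24). GAGE13 (ENSG00000274274, chrX:49331582-49338949, plus strand) had 97.7, 100.4 and 93.2 TPM in siCTRL and 3.52, 3.76 and 3.09 TPM in siMITF. Every siMITF library of both genes was far below every siCTRL library, and GAGE13, whose siCTRL libraries were the closer together, gave a log2 difference of -4.46 (SE 0.11). GAGE proteins are small acidic antigens without a settled molecular function.

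Because copies share reads, the 13 GAGE IDs of the table were also summed. The sum was 611, 644 and 521 TPM in siCTRL and 89.3, 102 and 88.5 TPM in siMITF, a fall to 15.7% of the siCTRL mean. Its log2 difference was -2.65 (SE 0.091), smaller in size than that of either GAGE12G or GAGE13. Of the 13 IDs, 5 averaged 2 TPM or more in some condition, and GAGE12B and GAGE12H were listed at 0 in all 12 libraries. The remaining 3 expressed copies, which were not among the 10 genes but share most of their sequence with them, were also called lower with siMITF. GAGE2E differed by -2.80 (SE 0.28), GAGE2A by -1.96 (SE 0.11) and GAGE12F by -1.88 (SE 0.091). Their reads are shared with GAGE12G and GAGE13, so these values are no separate support and are given without p-values.

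The copies did not hold constant shares of the GAGE sum. GAGE12F made up 29.0% ± 0.681 (SD, n = 3) of the sum in siCTRL and 49.1% ± 2.85 in siMITF. GAGE2A made up 13.3% ± 0.833 and 20.9% ± 0.352. GAGE12G went from 18.4% ± 1.02 to 6.12% ± 2.79 and GAGE13 from 16.5% ± 1.22 to 3.71% ± 0.224. GAGE2E, with no 31-base word of its own, held 22.7% ± 0.992 and 20.1% ± 4.95. The shares of the 5 copies thus differed between conditions, and whether the shift lies in the copies or in the division of shared reads was not tested.

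**Figure D3:**
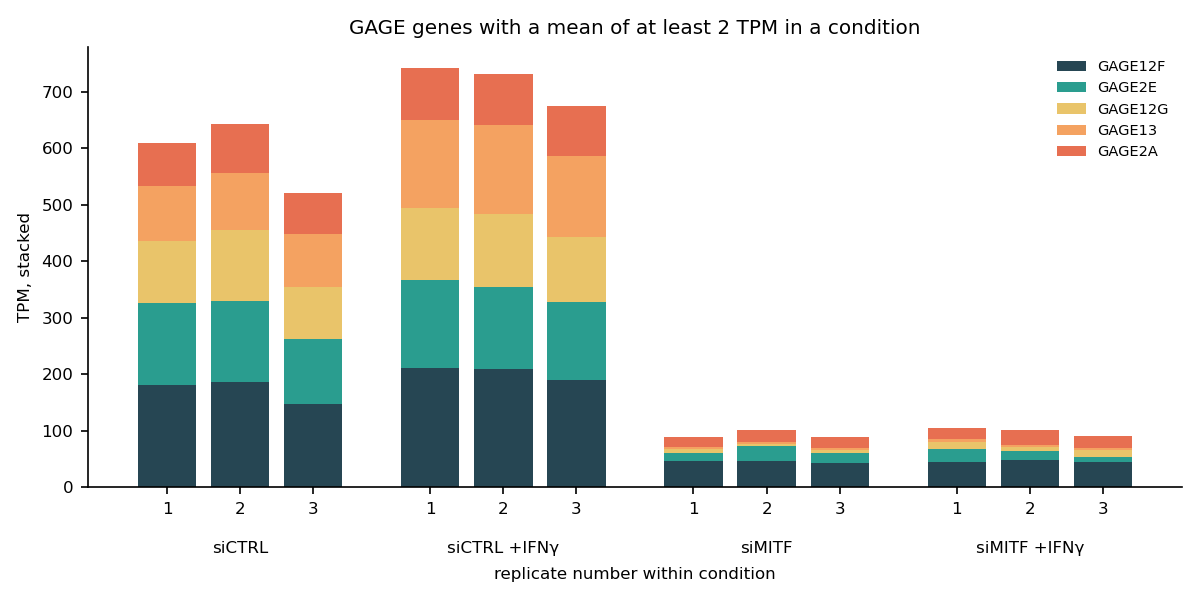
Stacked TPM (vertical axis, from 0) of the 5 GAGE genes that averaged 2 TPM or more in some condition, 1 bar per library and 3 bars per condition. The siMITF and siMITF + IFNγ bars stand near 100 TPM and have GAGE12F as their largest share (means of 49.1% and 46.7%), while the siCTRL bars stand between 521 and 644 TPM and the siCTRL + IFNγ bars above them.

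MAGEC1 (ENSG00000155495, chrX:141903894-141909374, plus strand), also known as CT7 and a large member of its family with long repeats, had 23.7, 26.6 and 24.8 TPM in siCTRL and 1.74, 2.33 and 1.75 TPM in siMITF. The log2 difference was -3.15 (SE 0.12), and no library of one condition came near the other. With 97.2% of its words found in no other gene, MAGEC1 is the called gene of the 3 that does not depend on the division of reads among copies. Its relative MAGEC2 (ENSG00000046774, chrX:142202342-142205290, minus strand), a partner of the ubiquitin ligase TRIM28, was near 0 throughout. It had 0.154, 0.274 and 0.263 TPM in siCTRL and 0.132, 0.285 and 0.304 TPM in siMITF, overlapping ranges below the minimum for testing.

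MAGEA4 (ENSG00000147381, chrX:151912495-151925171, plus strand), a target of engineered T-cell receptor therapy, was the most abundant of the 10 genes. It had 452, 498 and 445 TPM in siCTRL and 446, 465 and 463 TPM in siMITF. The ranges overlapped, and the log2 difference was -0.02 with a 95% interval from -0.16 to 0.12. MAGEA3 (ENSG00000221867, chrX:152698767-152702347, plus strand) and MAGEA6 (ENSG00000197172, chrX:152766136-152769716, minus strand), near-identical proteins that work with TRIM28 to degrade the kinase AMPK, were likewise close between the conditions. MAGEA3 had 197, 224 and 201 TPM in siCTRL and 206, 220.3 and 214 TPM in siMITF, with an interval of the log2 difference from -0.15 to 0.24. MAGEA6 had 153, 168 and 157 TPM in siCTRL and 151, 156 and 151 TPM in siMITF, with an interval from -0.21 to 0.09. Summed over both, the level was 366 TPM in each of the conditions, and the log2 difference had a 95% interval from -0.17 to 0.17. A difference of 1 on the log2 scale lies outside each of these intervals.

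MAGEA1 (ENSG00000198681, chrX:153179284-153183880, plus strand), a classical T-cell antigen of melanoma, had 77.2, 82.2 and 78.0 TPM in siCTRL and 62.6, 67.2 and 65.7 TPM in siMITF. MAGEA12 (ENSG00000213401, chrX:152733757-152737669, plus strand) had 166, 186 and 164 TPM in siCTRL and 133, 133 and 132 TPM in siMITF. The libraries of both genes did not overlap, and the log2 differences were -0.28 (SE 0.071) and -0.37 (SE 0.068), short of the threshold of 1. PRAME (ENSG00000185686, chr22:22547701-22559361, minus strand) had 215, 223 and 219.5 TPM in siCTRL and 203, 209 and 196 TPM in siMITF. Its siMITF libraries lay just below its siCTRL libraries, with a log2 difference of -0.11 and a 95% interval from -0.28 to 0.05. In all 6 of the 9 tested genes had every siMITF library below every siCTRL library, and so did 22.0% of all tested genes.

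The comparison of siMITF + IFNγ with siCTRL + IFNγ libraries asks the same question in stimulated cells. GAGE12G, GAGE13 and MAGEC1 were again the genes called lower, 3 of 9 against 2.57% of all tested genes called lower and 5.68% called in either direction. GAGE12G had 128, 129 and 116 TPM in siCTRL + IFNγ and 13.3, 8.47 and 12.5 TPM in siMITF + IFNγ, a log2 difference of -3.36 (SE 0.24). GAGE13 had 155, 158 and 144 TPM and 3.71, 2.35 and 3.19 TPM, a difference of -5.24 (SE 0.11). MAGEC1 had 16.7, 21.4 and 19.5 TPM and 1.89, 1.94 and 2.41 TPM, a difference of -2.71 (SE 0.12). In each of these genes the groups were wide apart. The GAGE sum was 743, 732 and 676 TPM against 105, 101 and 91.3 TPM, a difference of -2.84 (SE 0.091).

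The MAGEA genes and PRAME lay nearer to their siCTRL + IFNγ levels. MAGEA1 had 67.6, 75.0 and 70.2 TPM in siCTRL + IFNγ and 51.3, 57.0 and 57.3 TPM in siMITF + IFNγ, a log2 difference of -0.36 (SE 0.071). MAGEA12 had 151, 168 and 153 TPM and 122, 128 and 123 TPM, a difference of -0.34 (SE 0.068). Both had separate ranges, and with the 3 called genes they made 5 of the 9 whose siMITF + IFNγ libraries all lay lower, against 17.0% of all tested genes. PRAME had 210.2, 245 and 228 TPM and 182, 210.1 and 211 TPM, ranges that overlapped in part, with a difference of -0.18 (SE 0.075). The 95% interval of the log2 difference ran from -0.20 to 0.09 for MAGEA4, from -0.17 to 0.22 for MAGEA3 and from -0.18 to 0.12 for MAGEA6.

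**Figure D4:**
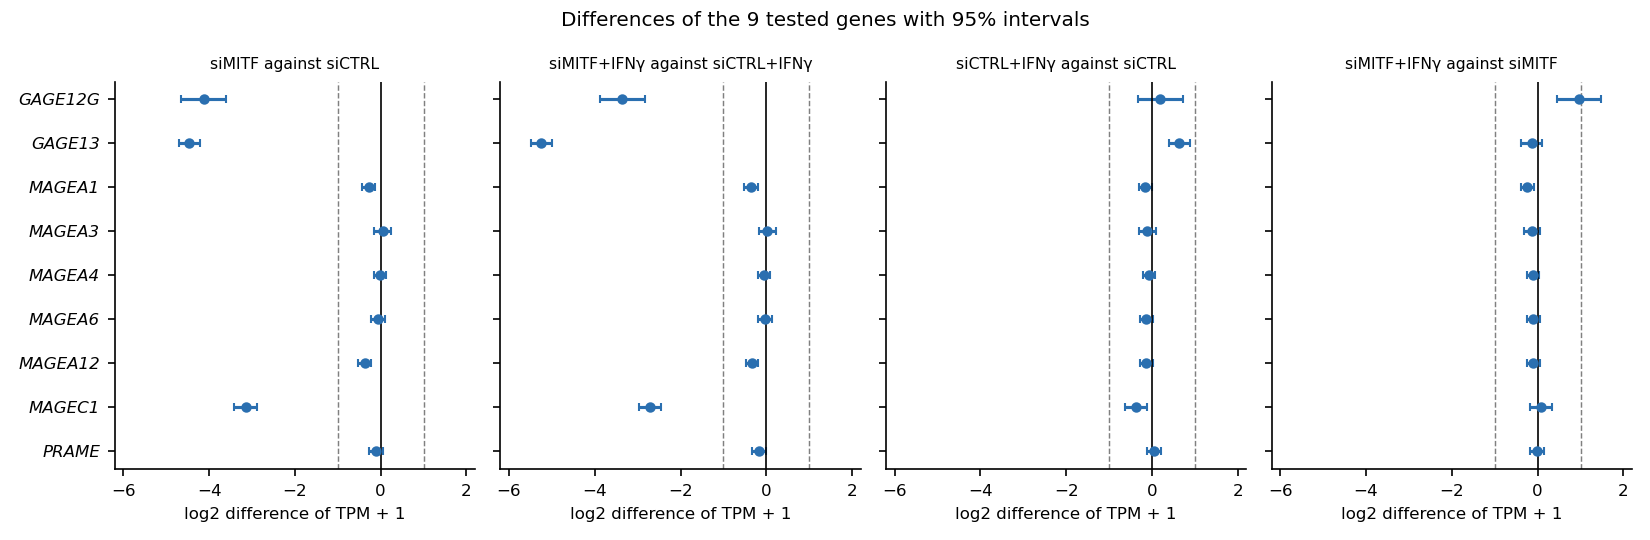
Log2 difference of TPM + 1 (horizontal axes) with its 95% interval for the 9 tested genes (rows) in 4 comparisons (panels), with dashed lines at -1 and 1. GAGE12G, GAGE13 and MAGEC1 lie beyond -2 in both comparisons of siMITF with siCTRL, and in both comparisons with IFNγ all 9 points lie between -1 and 1.

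The IFNγ comparison in siCTRL cells asks whether the cytokine alone moves these antigens. None of the 9 tested genes was called, against 2.52% of all tested genes in either direction. GAGE13 was the one gene with every siCTRL + IFNγ library above every siCTRL library, as were 11.7% of all tested genes. Its libraries lay at 155, 158 and 144 TPM against 97.7, 100.4 and 93.2 TPM, a log2 difference of 0.64 (SE 0.11). GAGE12G differed by 0.20 (SE 0.24) and the GAGE sum by 0.28 (SE 0.091), or 1.21-fold. MAGEA1 and MAGEC1 were lower without overlap, as were 18.1% of all tested genes, with differences of -0.16 (SE 0.071) and -0.37 (SE 0.12). PRAME differed by 0.05 with an interval from -0.11 to 0.22, and MAGEA3, MAGEA4, MAGEA6 and MAGEA12 by -0.07 to -0.13, with overlapping libraries. The median difference over all tested genes was itself -0.07 in this comparison. MAGEC2 had 0.179, 0.290 and 0.446 TPM in siCTRL + IFNγ.

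In siMITF cells none of the 9 genes was called for IFNγ either, against 2.95% of all tested genes. GAGE12G came closest, with 13.3, 8.47 and 12.5 TPM in siMITF + IFNγ against 6.78, 2.95 and 6.95 TPM in siMITF. It was the one gene with every treated library higher, as were 12.1% of all tested genes, and its log2 difference was 0.97 (SE 0.24), just under the threshold of 1. The GAGE sum differed by 0.09 with a 95% interval from -0.11 to 0.29. GAGE12G made up a mean of 6.12% of that sum in siMITF and 11.6% in siMITF + IFNγ. With so small a share, the sum cannot show whether GAGE12G itself was higher. GAGE12G would be called without siMITF replicate 1 (1.13), without siMITF replicate 3 (1.14) or without siMITF + IFNγ replicate 2 (1.15), and its difference was 0.64 without siMITF replicate 2. GAGE13 differed by -0.14 and MAGEC1 by 0.07. MAGEA1, MAGEA4, MAGEA6 and MAGEA12 were lower in every treated library, 4 of 9 genes against 28.4% of all tested genes, with differences of -0.10 to -0.24. The median difference over all tested genes was itself -0.10 here. MAGEC2 had 0.347, 0.286 and 0.392 TPM in siMITF + IFNγ, and PRAME differed by -0.01 with an interval from -0.18 to 0.15.

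Libraries given both siMITF and IFNγ were also compared with siCTRL libraries. This comparison and the comparisons of siMITF and of IFNγ with siCTRL share the siCTRL libraries. GAGE12G, GAGE13 and MAGEC1 were called lower, 3 of 9 against 3.13% of all tested genes called lower and 8.75% called in either direction, with log2 differences of -3.16 (SE 0.24), -4.60 (SE 0.11) and -3.08 (SE 0.12). MAGEA1 stood at 69.7% and MAGEA12 at 72.1% of the siCTRL mean. The 8 tested genes other than MAGEA3 lay lower in every library, and so did 29.4% of all tested genes.

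The interaction asks whether the effect of IFNγ differed between siMITF and siCTRL cells. A call needed an interaction beyond 1 in size and an adjusted p below 0.05, and no gene of the 9 was called, against 0.478% of all tested genes. The interaction was -0.78 (SE 0.16) for GAGE13, 0.77 (SE 0.34) for GAGE12G and 0.44 (SE 0.17) for MAGEC1 on the log2 scale. GAGE12G and GAGE13, which share reads, thus had values of opposite sign, and that of the GAGE sum was -0.19 with a 95% interval from -0.47 to 0.09. For PRAME it was -0.07 with an interval from -0.30 to 0.17.

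Other MAGE genes were read from the same fit. None of the 14 tested further MAGE genes of 28 listed was called with siMITF, against 6.10% of all tested genes, and their median log2 difference was -0.13 against 0.06 over all genes. At the adjusted p alone 2 were higher, as were 21.0% of all tested genes, and 5 were lower, as were 13.8%. With the replicate number as a block 2 were higher and 6 were lower, against 28.8% and 18.9% of all tested genes, the added gene being NDN (adjusted p = 0.0232). MAGEB2, a germline-type MAGE, had 139, 159 and 139 TPM in siCTRL and 79.4, 83.2 and 78.1 TPM in siMITF, a fall by 0.85 (SE 0.082, limma adjusted p = 5.16e-06). MAGEA2 fell by 0.59 (adjusted p = 0.000347), its copy MAGEA2B by 0.60 (adjusted p = 0.0221), MAGEB1 by 0.44 (adjusted p = 0.00256) and MAGEA10 by 0.36 (adjusted p = 0.0493). MAGEA2 shared 97.8% of its 31-base words with MAGEA2B, so these copies are not separate results, although the counts above hold both. Summed, MAGEA2 and MAGEA2B fell by 0.60 (limma adjusted p = 0.00162). MAGED2, a widely expressed MAGE, rose by 0.75 (SE 0.078, adjusted p = 1.03e-05) and MAGEA11, a coregulator of the androgen receptor, by 0.46 (adjusted p = 0.00153). The other tested genes, MAGEA9B, MAGED1, MAGED4, MAGED4B, MAGEF1, MAGEH1 and NDN, differed by -0.19 to 0.16 with adjusted p from 0.0881 to 0.993. Only MAGED2 was called in any comparison, with a rise of 1.06 in siMITF + IFNγ against siCTRL (adjusted p = 2.73e-07), from 84.9 ± 5.71 to 179 ± 7.40 TPM (SD, n = 3).

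None of the 3 tested XAGE and PAGE genes was called with siMITF, against 6.10% of all tested genes. XAGE1A differed by -0.10 (adjusted p = 0.469, interval from -0.30 to 0.11), XAGE1B by -0.09 (adjusted p = 0.528, interval from -0.29 to 0.12) and PAGE5 by 0.02 (adjusted p = 0.922, interval from -0.20 to 0.23). Their mean levels were 141, 144 and 152 TPM in siCTRL. XAGE1A and XAGE1B had close values in every library, such as 143 and 147 TPM in siCTRL replicate 1. Whether XAGE1A and XAGE1B share reads was not tested, so they are not taken as separate results. Of this list, 22 of 31 genes were in the table and 6 were tested. The 3 called, all lower, were the GAGE copies GAGE2E, GAGE2A and GAGE12F, against 2.88% of all tested genes called lower. These copies share reads with GAGE12G and GAGE13, so nothing further is read from that count.

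Of 61 other cancer-testis antigens 23 were tested, and none was called with siMITF or with IFNγ in either cell state. The shares of all tested genes called were 6.10% with siMITF and, with IFNγ, 2.52% in siCTRL cells and 2.95% in siMITF cells. The median log2 difference of the 23 with siMITF was 0.18, against 0.06 over all genes. At the adjusted p alone 5 of the 23 were higher and 1 was lower with siMITF, against 21.0% and 13.8% of all tested genes. With the replicate block it was 9 and 4, against 28.8% and 18.9%. MORC1, a germ cell chromatin protein, was called lower with siMITF under IFNγ with a difference of -1.80 (adjusted p = 1.15e-07), from 2.77 ± 0.486 to 0.0783 ± 0.0485 TPM. In the absence of IFNγ it differed by -1.47 (adjusted p = 5.69e-07), with siCTRL at 1.97 TPM and so under the minimum level for a call. With IFNγ in siMITF cells, 11 of the 23 were lower at the adjusted p alone and none was higher, with a list median of -0.37 against -0.10 over all genes. Of all tested genes 12.2% were lower by this rule, and with the replicate block it was 12 of the 23 against 24.5%. With IFNγ in siCTRL cells 3 of the 23 were lower at the adjusted p alone, OIP5, TTK and CEP55, against 6.14% of all tested genes, or 8 against 16.0% with the block, and none was higher. Among the genes lower in siMITF cells, named after their values were seen, were the mitotic genes KIF2C (-0.78, adjusted p = 0.000568) and CEP55 (-0.64, adjusted p = 0.000396) and CTAG1A, an NY-ESO-1 gene (-0.37, adjusted p = 0.00601). The list thus mixes mitotic genes with other antigens, so its counts and median do not describe each antigen. CSAG1, also named after its values were seen, averaged 104 ± 2.51 TPM in siMITF and 107 ± 7.02 TPM in siMITF + IFNγ.

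**Figure D5:**
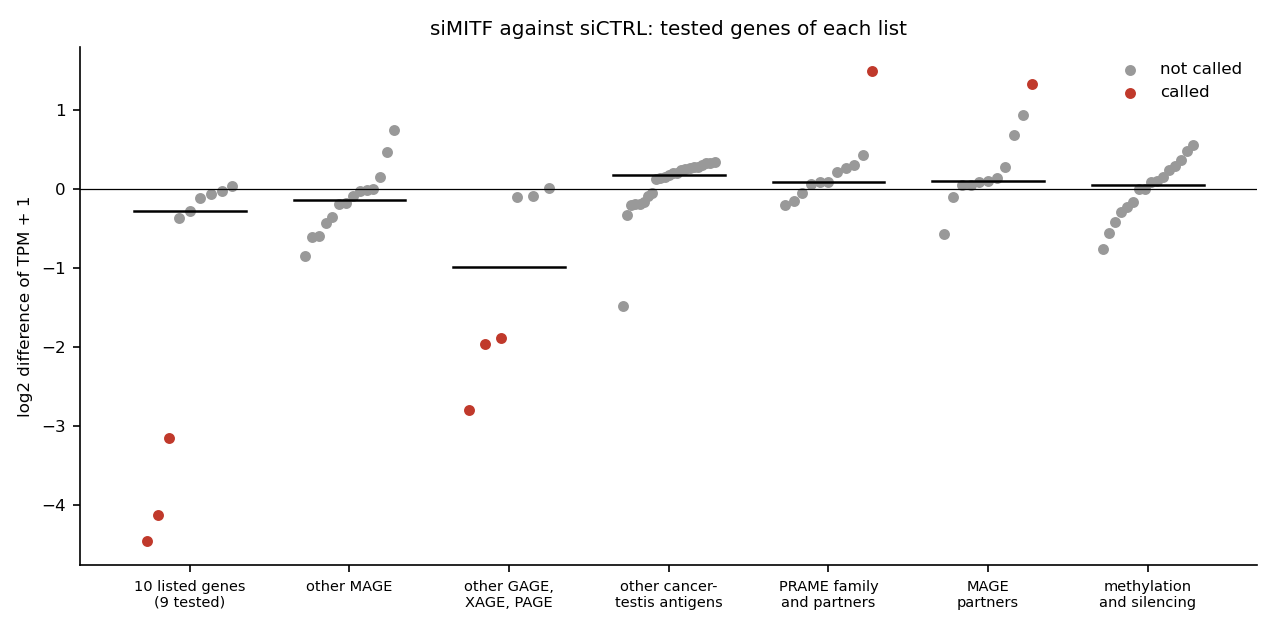
Log2 difference of TPM + 1 between siMITF and siCTRL libraries (vertical axis) for the tested genes of 7 lists (horizontal axis), with called genes in red and a line at the median of each list. The 6 genes called lower are the 5 GAGE genes and MAGEC1, and CYP26B1 and HDAC1 are the genes called higher. The 5 GAGE genes share reads and are not separate results.

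Genes for proteins that act with PRAME or MAGE proteins, or in retinoic acid signalling, were read in the same way. Of 11 tested genes of the PRAME family, its partners and retinoic acid signalling, 1 was called with siMITF, against 6.10% of all tested genes. This was CYP26B1, which degrades retinoic acid and is not a PRAME partner, and no other tested gene of that list was called. CYP26B1 rose by 1.50 (SE 0.21, adjusted p = 0.000116), from 4.63 ± 0.557 to 15.0 ± 2.08 TPM. Of 11 tested MAGE partners, 1 was called against the same share, the deacetylase HDAC1, which rose by 1.33 (SE 0.15, adjusted p = 2.46e-05), from 101 ± 12.5 to 255 ± 18.4 TPM. None of 16 tested regulators of DNA methylation and silencing was called with siMITF, against 6.10% of all tested genes. DNMT3B, a de novo DNA methyltransferase, was lower with siMITF under IFNγ with a difference of -1.33 (adjusted p = 2.96e-06) and had an interaction of -1.04 (adjusted p = 0.0089). It stood at 6.88 ± 0.393 TPM without and 12.01 ± 1.86 TPM with IFNγ in siCTRL cells, and at 5.47 ± 0.184 and 4.17 ± 0.571 TPM in siMITF cells. HELLS, a chromatin remodeller needed for DNA methylation, was lower in siMITF + IFNγ against siCTRL with a difference of -1.10 (adjusted p = 2.83e-05).

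Among all genes called lower with siMITF, 368 in number, GAGE13 held rank 3 by size of the log2 difference, GAGE12G rank 5 and MAGEC1 rank 14. The ranks of the GAGE copies rest on how shared reads were divided, and the GAGE sum, at -2.65, differed by less than GAGE2E at rank 19 (-2.80). The GAGE and MAGEC1 genes are on the X chromosome, where 13 of 405 tested genes (3.21%) were called lower. Without GAGE and MAGE genes it was 7 of 382 (1.83%), and over all chromosomes it was 2.88%.

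For PRAME and for the gene with the highest mean TPM over the libraries among the GAGE, MAGEA and MAGEC genes of the 10, the genes of no list with the most similar log2 values over the 12 libraries were sought among 11867 tested genes. These libraries share 4 conditions and their scaling, so the correlations are descriptions. GAGE13 was most like TRIM63 (Pearson r = 0.997), CHST9 (0.996) and MLPH (0.995). MAGEC1 was most like TBC1D7 (0.998), TTC39A (0.997) and GPR137B (0.997). Over siCTRL and siMITF cells TBC1D7 had means of 332 and 56.5 TPM, or 281 and 54.8 TPM with IFNγ. In the same order TRIM63 had 37.7 and 1.03 TPM, or 66.8 and 1.18 TPM with IFNγ. PRAME was most like TOLLIP (0.981), ARFGAP1 (0.972) and GPATCH3 (0.968). MAGEA4 was most like PHB1 (0.967), YRDC (0.964) and EOLA2 (0.964). For PHB1 the means were 313 and 309 TPM, or 285 and 265 TPM with IFNγ.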

How the data were processed

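RNA of 12 libraries of 624Mel cells was analysed, 3 per condition. The authors prepared TruSeq RNA v2 libraries from total RNA, trimmed reads with Trimmomatic 0.39 and quantified them with kallisto 0.46.1 on the Ensembl GRCh38 transcriptome. The deposited values are TPM summed per Ensembl gene. The Ensembl release is not given in the sources used here, and the depth of the libraries is unknown. Each library summed to 975336 to 982632 TPM, and correlations between libraries across genes were 0.978 to 0.998. kallisto divides reads shared by near-identical copies among them by estimation, which affects GAGE12G, GAGE13, MAGEA3 and MAGEA6. The authors' own tests were made with DESeq2 1.26.0 on counts, which were not used here.

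Gene IDs were given symbols from GENCODE v44, in which 816 of the 12773 tested IDs had none. The log2 of TPM + 1 was used, so differences of low genes are understated. IDs that averaged 2 TPM or more in some condition entered a limma model (version 3.58.1, R 4.3.3) with a coefficient for each condition and variance moderation that followed intensity. Tests were two-sided, with Benjamini-Hochberg adjustment over the tested IDs. The fit was tested on simulated data. Python 3.11.15 with the packages pandas 2.3.3 and matplotlib 3.10.9 gave the words of 31 bases, tables and figures. The printed sequences equalled the GRCh38 genome at their coordinates.

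The genes and lists were chosen with earlier results of these data known. The text names all 10 genes, every other tested MAGE, GAGE, XAGE and PAGE gene, up to 3 called genes per direction of each other list, genes that check the treatments, the 3 most similar genes, and a few more from the other cancer-testis antigens, chosen after their values were seen. Some genes of these checks are not reported here. The replicate numbers are shared by the conditions in the labels, which do not say what a number stands for. Once condition means were removed, same-numbered libraries of different conditions (18 pairs) correlated at 0.102 to 0.625 across tested genes, with a median of 0.279, against a median of -0.196 for differently numbered ones. The number was therefore taken as a block in an alternative fit. Unless the block is named, the SE, intervals and p-values printed here come from the fit without it. The other alternatives were a pseudocount of 0.1, no filter, a filter at 5 TPM on the average over the 12 libraries, quantile normalization, median centring, no trend, only the compared conditions, copies summed, and each library left out. TPM rescaled without mitochondrial genes were added after seeing the data.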

Additional observations from a re-analysis of the deposited data

Results flagged for a closer look

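Genes are listed here if their interaction had an adjusted p under 0.05, among the 10 genes and the further MAGE, GAGE, XAGE and PAGE genes. GAGE13 alone met this rule. It was chosen with its values known, so its listing is a description and not a test. GAGE12G, which shares reads with GAGE13, had an interaction of 0.77 (SE 0.34) and did not meet the rule. The effect of IFNγ on GAGE13 was 0.64 (SE 0.11) in siCTRL cells and -0.14 (SE 0.11) in siMITF cells on the log2 scale, and the interaction in the limma fit was -0.78 (SE 0.16), under a size of 1. Over the alternatives it ran from -0.89 to -0.19, the latter being the value of the summed GAGE genes, whose 95% interval ran from -0.47 to 0.09. GAGE13 had 3.20% of its 31-base words to itself, and the part that the division of reads among copies has in this value was not tested.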

How the results depend on the processing

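Depth is unknown, so counting error could not be given, and 3 libraries per condition limit the precision. GAGE12G, GAGE13 and MAGEC1, called in the comparisons with siMITF, were fitted again under the alternatives, which gave 198 values. All 198 were still called and 0 changed sign. These refits use the same 12 libraries or all but 1 of them, so they are not separate results. With GAGE genes summed, the siMITF difference was -2.65 in place of -4.13 for GAGE12G and -4.46 for GAGE13. With a pseudocount of 0.1 it was -3.63 for MAGEC1 and -4.78 for GAGE13. The number of the 9 genes called for IFNγ in siMITF cells, 0, was 1 with a pseudocount of 0.1, with median centring and without mitochondrial genes, the gene being GAGE12G at 1.097, 1.01 and 1.01. When an average of 5 TPM over the 12 libraries was required, 245 genes in place of 377 were called for IFNγ in siMITF cells and 32 in place of 61 for the interaction, among 10482 genes tested.

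With 1 library left out in turn, the genes called ranged from 774 to 788 for siMITF, 313 to 334 for IFNγ in siCTRL cells, 376 to 400 for IFNγ in siMITF cells, 711 to 758 for siMITF under IFNγ, 1112 to 1154 for the combination and 44 to 68 for the interaction. Of the 9 genes 3 were called each time in the comparisons with siMITF, 0 for IFNγ in siCTRL cells and for the interaction, and 0 to 1 for IFNγ in siMITF cells. With the replicate number as a block, 786, 326, 385, 737, 1129 and 71 genes were called in the same order, and the block changed no call among the 9 genes or the listed genes named here, and counts at the adjusted p alone are given with the block beside them.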
